A study of Mus musculus with 11 samples.

Results

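The collapsin response mediator proteins (CRMPs) are a family of 5 genes in the mouse, Crmp1, Dpysl2, Dpysl3, Dpysl4 and Dpysl5, and all 5 were found by symbol among the 18756 genes measured. The family was picked because Dpysl3 was lower in tumours of the genotype GNA11 Q209L Bap1 KO than in tumours of the genotype GNA11 Q209L. The values of that comparison therefore chose the family, and they are given below as a description with no test. The data are RNA sequencing of 11 skin tumours taken at end point from C57BL/6 mice engineered to develop melanoma. In 2 tumours the genotype was GNA11 Q209L, an activating change of a G protein alpha subunit known from uveal melanoma. Another 5 carried GNA11 Q209L together with Bap1 KO, the loss of a nuclear deubiquitinase and tumour suppressor. The remaining 4 carried BRAF V600E, the common activating change of cutaneous melanoma, together with Bap1 KO. The sources used here do not give the Cre driver, how tumours were started, sex, age or batch. Replicates are numbered in the order of deposit.

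Facts about the libraries bear on every value. The deposited header gives Bap1 as F/F in all 9 libraries labelled Bap1 KO, but a header block repeated at the end of the table gives NA for replicates 2 and 4 of BRAF V600E Bap1 KO, so results that rest on these are also given without them. Replicates 1 and 2 of GNA11 Q209L Bap1 KO have titles with the same identifier and may come from the same animal. The labels do not say that the other libraries come from separate animals, so p-values measure only the spread between these libraries. Total counts ran from about 18300000 to 81000000 per library. The count of Bap1 was 54.7 to 71.3 CPM (counts scaled to library size) in BRAF V600E Bap1 KO, below every GNA11 library. It did not separate the GNA11 tumours by Bap1 label. The 5 GNA11 Q209L Bap1 KO tumours were at 102 to 170 CPM, beside 85.1 and 137 CPM in GNA11 Q209L. A list of 12 melanocyte genes had a mean log2(CPM + 0.5) of 10.55 to 11.13 in the 7 GNA11 tumours and of 1.39 to 3.60 in the 4 BRAF tumours, so the label of melanoma was not matched by melanocyte markers in the latter. These are bulk samples, in which fewer cells of a type and less RNA per cell cannot be told apart.

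CRMPs are cytosolic phosphoproteins best known from growing neurites. They relay the signal of the repulsive cue semaphorin 3A from neuropilin and plexin receptors to the cytoskeleton, and they bind tubulin and promote microtubule assembly until kinases such as Cdk5 and Gsk3b phosphorylate them. The proteins resemble dihydropyrimidinase, the enzyme of pyrimidine breakdown that gave the Dpysl genes their name, but lack its activity.

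Dpysl3 (ENSMUSG00000024501), also called CRMP4, bundles actin filaments and acts in growth cones. Its level was 122 and 254 CPM in the 2 GNA11 Q209L tumours. With GNA11 Q209L and Bap1 KO together it was 18.1, 14.6, 16.2, 16.7 and 4.67 CPM for replicates 1 to 5, and in BRAF V600E Bap1 KO it was 157, 180, 169 and 235 CPM. All 5 of these GNA11 Q209L Bap1 KO tumours lay below every other tumour, and the 2 other genotypes overlapped. The group means were 188 ± 93.2 CPM (SD, n = 2), 14.1 ± 5.39 CPM (SD, n = 5) and 185 ± 34.6 CPM (SD, n = 4). The GNA11 Q209L Bap1 KO mean was 13.4-fold lower than that of GNA11 Q209L, a fitted log2 difference of -3.75 ± 0.43 (SE), and 13.2-fold lower than BRAF V600E Bap1 KO, a difference of -3.72 ± 0.40 (SE). Both comparisons use the same 5 low libraries that led to the choice of the gene, and neither is tested here. From BRAF V600E Bap1 KO to GNA11 Q209L the fitted difference was 0.02 ± 0.47 (SE), with a 95% confidence interval of -1.02 to 1.07, and its sign turned under some alternatives. With replicate 5 left out, GNA11 Q209L Bap1 KO had a mean of 16.4 CPM, and that of BRAF V600E Bap1 KO without replicates 2 and 4 was 163 CPM.

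**Figure D1:**
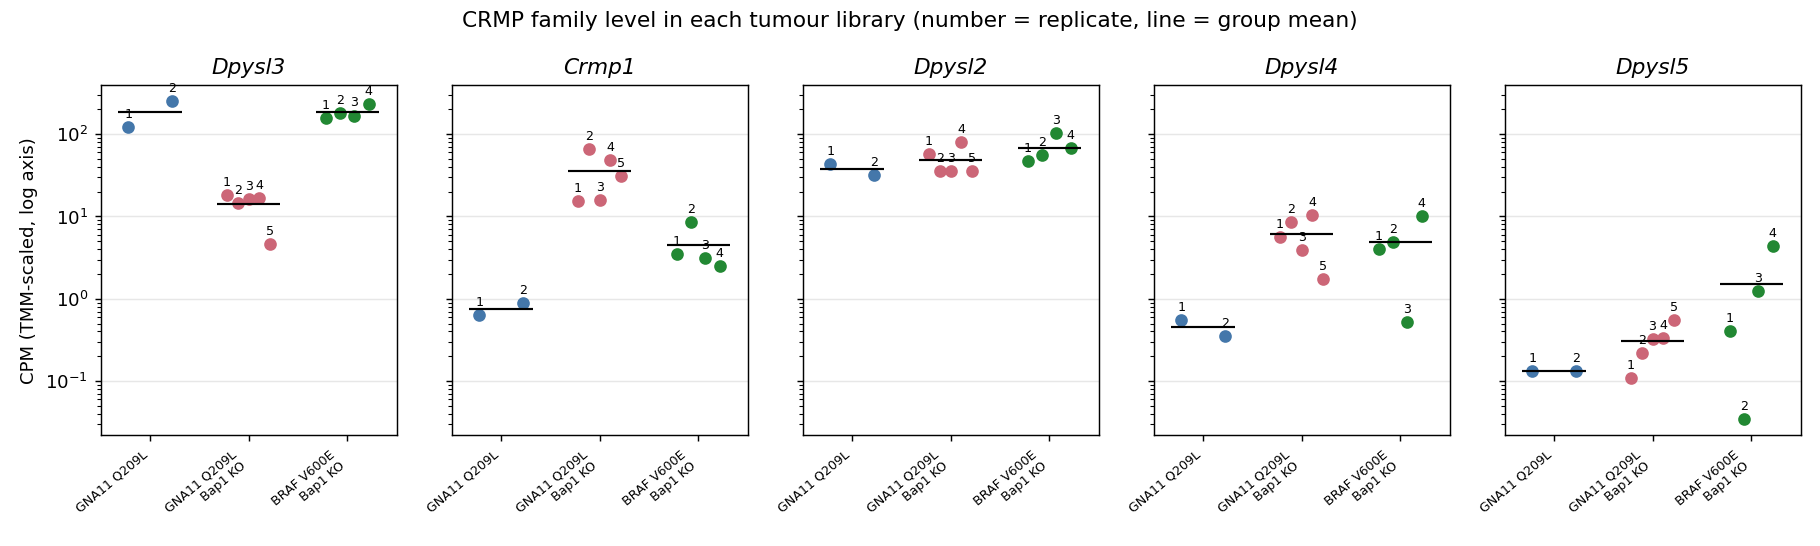
CPM of each family member in the 11 libraries, on a log axis, with 1 point per library grouped by genotype. Dpysl3 is low in all 5 GNA11 Q209L Bap1 KO libraries (4.67 to 18.1 CPM), Crmp1 is high in the same 5 (15.4 to 66.5 CPM), and Dpysl2 overlaps between GNA11 Q209L Bap1 KO and each of the other genotypes.

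Between genotypes, fibroblast markers were also at their lowest summed levels where Dpysl3 was low. The mean log2(CPM + 0.5) of 12 fibroblast genes was 6.20 to 8.35 in BRAF V600E Bap1 KO, 2.66 to 5.02 in GNA11 Q209L Bap1 KO, and 7.95 and 5.43 in GNA11 Q209L. In the same order their summed level ran from 3227 to 18530 CPM, from 425 to 2313 CPM and from 2950 to 11730 CPM, and none of the 12 was at 0 in any library. Within GNA11 Q209L the order was reversed. Replicate 1, at 7.95, had Dpysl3 at 122 CPM, and replicate 2, at 5.43, had it at 254 CPM. GNA11 Q209L Bap1 KO replicate 1 was near the latter in fibroblast level, at 5.02, with Dpysl3 at 18.1 CPM. Against GNA11 Q209L, 11 of the 12 fibroblast genes had a negative fold change in GNA11 Q209L Bap1 KO. By edgeR 0 passed the test and 11 had an unadjusted p under 0.05, limma voom called 0, and DESeq2 called 3, namely Dcn, Dpt and Pi16. Over all genes, 11.4% had an unadjusted p under 0.05 by edgeR and DESeq2 called 2.31%. The list had a median log2 difference of -2.92 beside -3.75 for Dpysl3. Against BRAF V600E Bap1 KO, edgeR called 11 of the 12 lower (median -3.78), beside 24.7% of all genes called lower. Markers of some other cell types were lower as well, though not of all. All 10 macrophage genes had negative fold changes against GNA11 Q209L (median -1.72) and 9 of 10 against BRAF V600E Bap1 KO (median -1.83), with summed levels of 212 to 1146 CPM in GNA11 Q209L Bap1 KO, beside 842 to 6818 CPM and 805 to 2990 CPM. The macrophage sums thus overlapped with both other genotypes, and of the GNA11 Q209L libraries only replicate 1 lay above the range of GNA11 Q209L Bap1 KO. All 10 endothelial genes had negative fold changes against GNA11 Q209L (median -0.96), with summed levels of 382 to 499 CPM beside 699 to 1097 CPM, and 3 of 10 against BRAF V600E Bap1 KO (median 0.12). Skeletal muscle and keratinocyte genes went the other way against GNA11 Q209L, in 10 of 10 (median 3.3) and 9 of 10 (median 4.73). Their summed levels overlapped. They were 9.3 to 200 and 4.49 to 1657 CPM in GNA11 Q209L Bap1 KO, beside 11.6 to 14.3 and 11.3 to 16.1 CPM. The highest were in replicate 3 for muscle and replicate 1 for keratinocyte genes, with a mean log2(CPM + 0.5) of 3.21 and 5.10. The remaining libraries of that genotype were at most at 0.80 and 0.32, beside at most 0.09 and 0.44 in GNA11 Q209L. Against BRAF V600E Bap1 KO, all 10 of each list had negative fold changes. The part of these markers in the Dpysl3 difference was not tested.

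**Figure D2:**
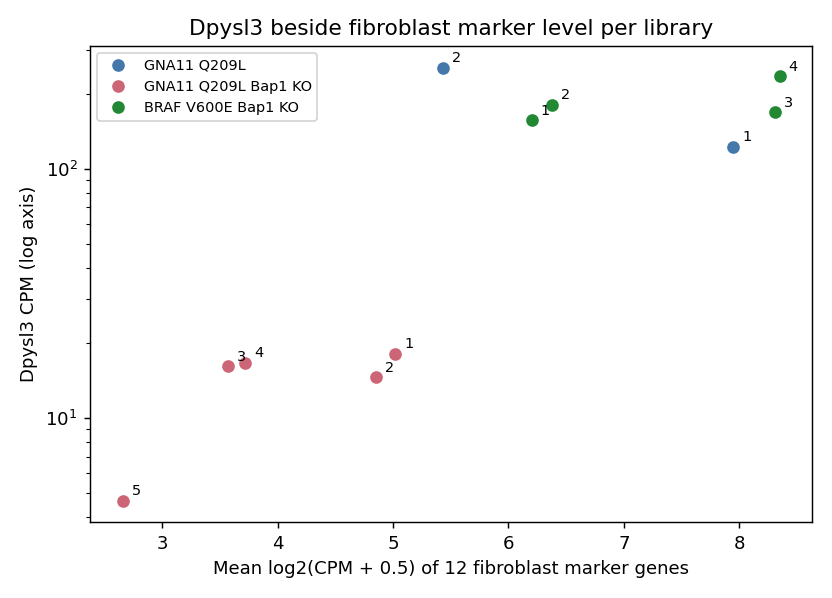
Dpysl3 CPM (log axis) against the mean log2(CPM + 0.5) of 12 fibroblast genes, 1 point per library, numbered by replicate. The 5 GNA11 Q209L Bap1 KO libraries lie at fibroblast levels of 2.66 to 5.02 and Dpysl3 levels of at most 18.1 CPM, while the other 6 libraries lie at fibroblast levels of 5.43 to 8.35 and Dpysl3 levels of at least 122 CPM. Within GNA11 Q209L, replicate 1 has the higher fibroblast level and the lower Dpysl3.

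Crmp1 (ENSMUSG00000029121), which takes part in semaphorin 3A signalling and binds tubulin and actin regulators, had the opposite order. In GNA11 Q209L it was at 0.628 and 0.892 CPM, from 24 and 20 counts. With Bap1 KO added it was at 15.4, 66.5, 15.7, 49.2 and 30.7 CPM in replicates 1 to 5, and in BRAF V600E Bap1 KO at 3.52, 8.66, 3.17 and 2.49 CPM. The 3 genotypes did not overlap. The group means were 0.760 ± 0.187 CPM (SD, n = 2), 35.5 ± 22.2 CPM (SD, n = 5) and 4.46 ± 2.83 CPM (SD, n = 4). The mean of GNA11 Q209L Bap1 KO was 46.7-fold that of GNA11 Q209L, a fitted log2 difference of 5.55 ± 0.91 (SE) that is given without a test.

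Because Crmp1 was the member with the largest rise in the comparison that chose the family, the sequence upstream of its starts is shown. RefSeq (GRCm38.p6) lists 2 starts on the plus strand, and the deposited counts sum over both. Capitals mark CG dinucleotides, the sites at which vertebrate DNA is methylated. The first window is chr5:37241808-37241939, ending at the base before the earliest annotated start, and the second is chr5:37245514-37245763.
Crmp1 first start: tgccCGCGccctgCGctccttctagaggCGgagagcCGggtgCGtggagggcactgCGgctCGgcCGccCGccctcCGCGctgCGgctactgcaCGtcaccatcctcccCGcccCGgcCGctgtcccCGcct
Crmp1 second start: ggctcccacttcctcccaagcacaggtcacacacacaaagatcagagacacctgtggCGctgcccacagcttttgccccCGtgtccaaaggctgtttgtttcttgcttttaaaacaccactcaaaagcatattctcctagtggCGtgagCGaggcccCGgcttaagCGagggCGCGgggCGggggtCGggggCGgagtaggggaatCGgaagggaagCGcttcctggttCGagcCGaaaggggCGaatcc
The first of these holds 18 CG dinucleotides in 132 bases, and its full window of 250 bases holds 30, more than 94.1% of 32851 such windows. The second holds 16, more than 74.6% of windows, and the median window holds 6. Neither of the full windows holds CACGTG or CATGTG on either strand, the letters of E-boxes that MITF-type factors can bind, which occur in 6.02% and 12.25% of windows. No methylation or binding was measured in these tumours.

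The choice of the family did not use the comparison of oncogenes with Bap1 KO in both labels, although both share the 5 GNA11 Q209L Bap1 KO libraries. There the mean of the gene under GNA11 Q209L was 7.96-fold that under BRAF V600E. The log2 difference was 2.99 ± 0.58 (SE), with a 95% confidence interval of 1.72 to 4.26 and an adjusted p of 0.00377 by edgeR's quasi-likelihood test over 17350 genes. It was higher in 5 of 5 libraries than in any of the 4. The call held under all 19 alternatives run, with log2 differences of 2.66 to 3.53. Without BRAF V600E Bap1 KO replicates 2 and 4, the log2 difference was 3.40 and edgeR's adjusted p was 0.0122. In the same comparison 41.2% of all genes passed the threshold, 16.5% of all genes in the direction of Crmp1, so a call of 1 among the 4 members tested is not above the background. Groups that do not overlap were found for 31.8% of genes, 14.7% higher as Crmp1 was and 17.2% lower as Dpysl3 was. The remaining pair of genotypes, GNA11 Q209L against BRAF V600E Bap1 KO, has a different oncogene and a different Bap1 label. Crmp1 was 5.87-fold lower in the first of them, a log2 difference of -2.55 ± 0.78 (SE) with an adjusted p of 0.0499 by edgeR. This call lies at the threshold. It held in 4 of 19 alternatives and was lost in 15, and without BRAF V600E Bap1 KO replicates 2 and 4 the adjusted p was 0.102. Leaving out GNA11 Q209L replicate 2 gave 0.251. The background there was 15.2% of all genes, 5.93% in the direction of Crmp1, and its groups share libraries with the other comparisons.

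Melanocyte markers also differed between the oncogenes, with all 12 called higher under GNA11 Q209L Bap1 KO by edgeR. Their summed level was 78750 to 102500 CPM against 55.7 to 221 CPM. In GNA11 Q209L it was 67880 to 70740 CPM, where Crmp1 was below 1 CPM, and what the melanocyte content contributes to the oncogene comparison was not tested. Of 9 neuron markers tested between the oncogenes, 2 were called higher in GNA11 Q209L Bap1 KO by edgeR, namely the tubulin gene Tubb3 and the intermediate filament gene Prph, and 5 were called lower. Snap25 and Syt1, which act in synaptic vesicle release, had 0 and at most 1 count in each GNA11 Q209L Bap1 KO library. The part of neuron markers in the Crmp1 difference was not tested. The annotated span of Crmp1 overlaps that of Evc, a gene on the opposite strand, in GENCODE M21. Whether their exons overlap was not examined. No source states that counting used strand, so whether reads of either gene were counted for the other is not known. In BRAF V600E Bap1 KO, Evc had a mean of 34.9 ± 21.3 CPM (SD, n = 4). Under GNA11 Q209L its mean was 151 ± 37.6 CPM with Bap1 KO (SD, n = 5) and 94.8 ± 50.4 CPM without it (SD, n = 2). It was thus well above Crmp1 in GNA11 Q209L, where Crmp1 had at most 24 counts. Between the oncogenes with Bap1 KO, Evc was higher under GNA11 Q209L, as Crmp1 was, by 4.33-fold without overlap (adjusted p = 0.00662 by edgeR). In GNA11 Q209L against BRAF V600E Bap1 KO it was 2.72-fold higher (adjusted p = 0.0874 by edgeR), while Crmp1 was lower. The part of Evc in the Crmp1 values was not tested.

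Dpysl2 (ENSMUSG00000022048), or CRMP2, is the best studied member and carries tubulin dimers to growing microtubules. It was at 43.3 and 32.02 CPM in GNA11 Q209L. With Bap1 KO added it was at 57.9, 35.8, 36.0, 79.3 and 35.8 CPM, and in BRAF V600E Bap1 KO at 47.4, 55.5, 103 and 67.5 CPM. GNA11 Q209L Bap1 KO overlapped with each of the other genotypes, while both GNA11 Q209L tumours lay below all 4 BRAF V600E Bap1 KO tumours. The means were 37.7 ± 7.97 CPM (SD, n = 2), 49.0 ± 19.5 CPM (SD, n = 5) and 68.4 ± 24.7 CPM (SD, n = 4). The fitted log2 difference of GNA11 Q209L Bap1 KO from GNA11 Q209L was 0.38 ± 0.41 (SE). Against BRAF V600E Bap1 KO it was -0.48 ± 0.32 (SE), with a 95% confidence interval of -1.19 to 0.22 and an adjusted p of 0.241 by edgeR. GNA11 Q209L differed from BRAF V600E Bap1 KO by -0.86 ± 0.43 (SE), with an interval of -1.81 to 0.09 and an adjusted p of 0.17 by edgeR. Dpysl2 passed the threshold in neither comparison under any of the 19 alternatives, and differences inside these intervals are not excluded. Groups of GNA11 Q209L and BRAF V600E Bap1 KO did not overlap for 41.9% of all genes, 22.9% in the direction of Dpysl2.

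Dpysl4 (ENSMUSG00000025478), or CRMP3, is a less studied member known as a target of p53. It was at 0.550 and 0.357 CPM in GNA11 Q209L, from 21 and 8 counts. With Bap1 KO added it was at 5.70, 8.63, 3.90, 10.5 and 1.73 CPM, and in BRAF V600E Bap1 KO at 3.99, 4.91, 0.522 and 10.1 CPM. All 5 GNA11 Q209L Bap1 KO tumours were above both GNA11 Q209L tumours, and BRAF V600E Bap1 KO overlapped with both other genotypes, its replicate 3 lying within the range of GNA11 Q209L. The means were 0.453 ± 0.136 CPM (SD, n = 2), 6.09 ± 3.52 CPM (SD, n = 5) and 4.88 ± 3.96 CPM (SD, n = 4). The rise over GNA11 Q209L in the comparison that chose the family was 13.4-fold, a log2 difference of 3.73 ± 1.14 (SE) given without a test. Between the oncogenes the log2 difference was 0.32 ± 0.73 (SE), with a 95% confidence interval of -1.28 to 1.92 and an adjusted p of 0.741 by edgeR, and its sign turned to -0.07 without BRAF V600E Bap1 KO replicate 3. It was 0.94 without replicate 4, and without replicates 2 and 4 it was 1.39, with an adjusted p of 0.288 by edgeR. GNA11 Q209L was lower than BRAF V600E Bap1 KO by 10.8-fold, a log2 difference of -3.41 ± 1.13 (SE), and missed the threshold with an adjusted p of 0.0625 by edgeR. Of 19 alternatives 2 passed, DESeq2 with an adjusted p of 0.00319 and edgeR without BRAF V600E Bap1 KO replicate 3 with 0.0292, and 17 did not. The log2 difference was -2.78 (adjusted p = 0.0917) without replicate 4 and -2.37 (adjusted p = 0.179) without replicates 2 and 4.

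Dpysl5 (ENSMUSG00000029168), or CRMP5, antagonises neurite growth promoted by CRMP2 and was the lowest member. It was at 0.131 and 0.134 CPM in GNA11 Q209L, from 5 and 3 counts. With Bap1 KO added it had 2, 4, 6, 7 and 32 counts, or 0.109 to 0.553 CPM. In BRAF V600E Bap1 KO it was at 0.405, 0.0341, 1.25 and 4.42 CPM, from 36, 1, 36 and 101 counts. The groups overlapped, and BRAF V600E Bap1 KO held both the lowest and the highest value of all 11 tumours. Its mean of 1.53 ± 1.99 CPM (SD, n = 4) was 0.564 CPM without replicate 4, beside 0.132 ± 0.00207 CPM (SD, n = 2) in GNA11 Q209L. The mean with Bap1 KO added to GNA11 Q209L was 0.308 ± 0.165 CPM (SD, n = 5). The log2 difference of GNA11 Q209L Bap1 KO from GNA11 Q209L was 1.23 ± 1.35 (SE). Between the oncogenes it was -2.25 ± 0.98 (SE), with an adjusted p of 0.0846 by edgeR. Of the alternatives 1 passed the threshold and 17 did not. It passed without BRAF V600E Bap1 KO replicate 2, the library with 1 count, at -2.66 with an adjusted p of 0.0233. It was -0.83 (adjusted p = 0.467) without replicate 4, -1.36 (adjusted p = 0.168) without replicates 2 and 4, and -0.72 (adjusted p = 0.629) by limma voom. GNA11 Q209L differed from BRAF V600E Bap1 KO by -3.48 ± 1.5 (SE), with an adjusted p of 0.122 by edgeR. DESeq2 gave 0.0382, and the other 18 alternatives did not pass, with -2.06 (adjusted p = 0.246) without BRAF V600E Bap1 KO replicate 4 and -1.83 (adjusted p = 0.459) by limma voom. Markers of several cell types also varied widely among the BRAF V600E Bap1 KO tumours, and their part in the Dpysl5 values was not tested. The summed level of 10 skeletal muscle genes ran from 13.2 to 6322 CPM there, with the highest in replicate 4. For 10 keratinocyte genes the mean log2(CPM + 0.5) ran from 3.3 to 8.69, with the highest in replicate 3. Over 13 Schwann cell markers this mean was 1.31 to 6.45 in BRAF V600E Bap1 KO, 3.63 to 4.5 in GNA11 Q209L Bap1 KO, and 4.4 to 4.63 in GNA11 Q209L. In the same order their summed levels were 83.4 to 3094, 1409 to 2478 and 1388 to 2054 CPM, and 0 of the 13 were at 0 in every library of a genotype.

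**Figure D3:**
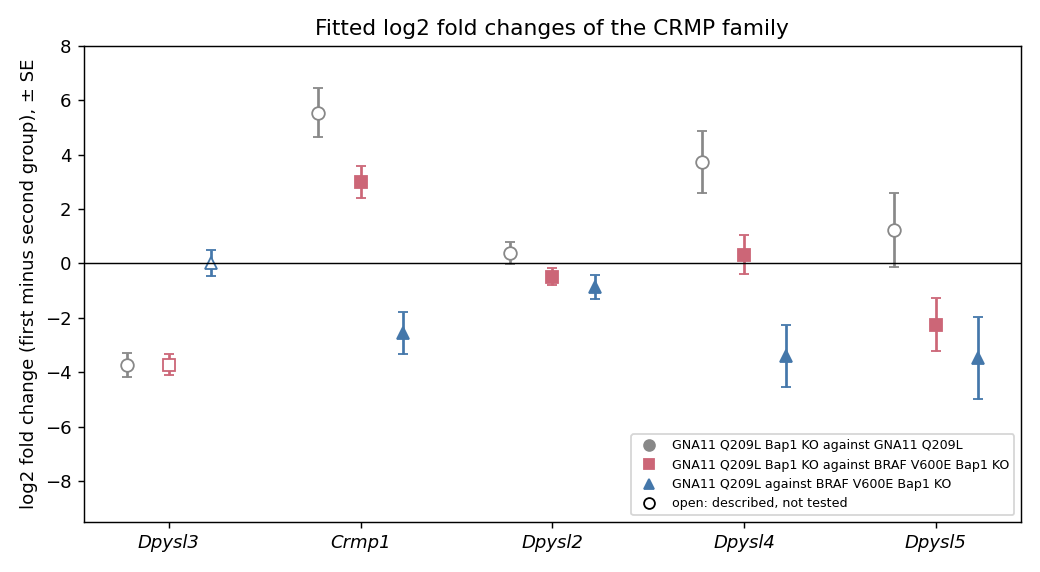
Fitted log2 fold changes ± SE of the 5 members in the 3 comparisons of genotypes, from a model over 11 libraries, with open symbols where a value is described and not tested. The open circles, for GNA11 Q209L Bap1 KO against GNA11 Q209L, put Dpysl3 at -3.75 and Crmp1 at 5.55. Among the filled symbols, Crmp1 passed the threshold in both of its comparisons, the second at an adjusted p of 0.0499.

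In the comparison that chose the family, Crmp1 and Dpysl4 were higher and Dpysl3 was lower without overlap, while Dpysl2 and Dpysl5 overlapped. Groups did not overlap for 16.6% of all genes there, 7.58% higher and 9.01% lower, and 0.0288% of genes passed edgeR's test. The rule used that comparison, so nothing is read from the count of 3 members.

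To compare members with each other, CPM was divided by the exon length in GENCODE M21, from 4.520 kb for Dpysl2 to 7.376 kb for Dpysl5. In GNA11 Q209L the mean level per kb was highest for Dpysl3 at 28.5 CPM per kb, followed by Dpysl2 at 8.33, Crmp1 at 0.108, Dpysl4 at 0.0757 and Dpysl5 at 0.0179 CPM per kb. In BRAF V600E Bap1 KO, Dpysl3 at 28.03 and Dpysl2 at 15.1 CPM per kb again came first, and Dpysl4 at 0.816 and Crmp1 at 0.633 CPM per kb were not separated by their spread. The order in GNA11 Q209L Bap1 KO was Dpysl2 at 10.8, Crmp1 at 5.04, Dpysl3 at 2.13, Dpysl4 at 1.02 and Dpysl5 at 0.0418 CPM per kb. Crmp1 and Dpysl3 overlapped there, since Crmp1 was lower than Dpysl3 in replicates 1 and 3, and Crmp1 exceeded Dpysl2 in replicate 2, at 9.44 against 7.93 CPM per kb.

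Expressed as shares of the summed family level per kb, Dpysl3 made up 65.5% and 84.1% in GNA11 Q209L and 52.0% to 66.9% in BRAF V600E Bap1 KO, but 5.30% to 18.4% in GNA11 Q209L Bap1 KO. Dpysl2 was the largest share in 4 of the GNA11 Q209L Bap1 KO tumours, at 59.3% to 68.5%, and stood at 37.7% in replicate 2, where Crmp1 was at 44.9%. Crmp1 made up 11.7% to 44.9% in that genotype, at most 0.315% in GNA11 Q209L and 0.666% to 2.95% in BRAF V600E Bap1 KO. The summed family level was 44.8 ± 7.88 CPM per kb (SD, n = 4) in BRAF V600E Bap1 KO, 19.1 ± 6.44 (SD, n = 5) in GNA11 Q209L Bap1 KO, and 37.0 ± 12.4 (SD, n = 2) in GNA11 Q209L. Shares are bound to each other, so the larger share of Dpysl2 stands beside an overlapping Dpysl2 level.

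**Figure D4:**
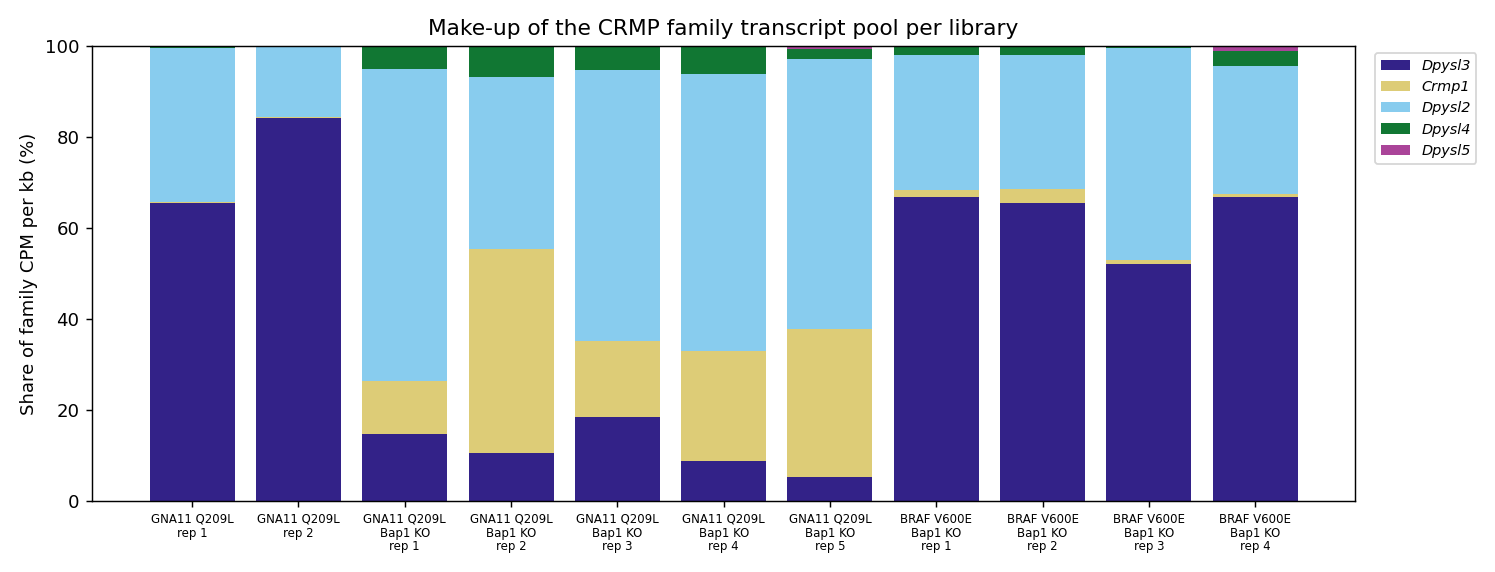
Share of each member in the summed family level (CPM per kb, in percent) for each of the 11 libraries, as stacked bars. Dpysl3 fills 52.0% to 84.1% in GNA11 Q209L and BRAF V600E Bap1 KO libraries and 5.30% to 18.4% in GNA11 Q209L Bap1 KO libraries, where Dpysl2 and Crmp1 fill most of the rest.

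The genes with the profile most like that of a member were found by the root mean square difference of log2 CPM after centring, over 11 libraries and 10373 genes. For Dpysl3 the closest was Rbms3, which encodes an RNA-binding protein, at a difference of 0.603. Its mean was 52.3, 5.32 and 31.0 CPM in BRAF V600E Bap1 KO, GNA11 Q209L Bap1 KO and GNA11 Q209L, respectively. Next were Car5b, a mitochondrial carbonic anhydrase, at 0.854, and Sulf1, an extracellular sulfatase of heparan sulfate, at 0.884. Adam19, Zfp608, Emp1, Pdzrn3 and Lhfp followed at 0.886 to 0.931. For Crmp1 the closest were Grik2, a kainate receptor subunit, at 1.07, Xkr5 at 1.15, and Scube1, a secreted EGF-domain protein, at 1.19. Scube1 had means of 13.9, 49.1 and 1.16 CPM in BRAF V600E Bap1 KO, GNA11 Q209L Bap1 KO and GNA11 Q209L. These are descriptions of likeness over the same libraries. Between members the largest difference was that of Crmp1 and Dpysl3, at 3.93, and the smallest that of Dpysl2 and Dpysl5, at 1.34. Dpysl5 had 1 to 101 counts per library, and the prior count of 2 used for log2 CPM flattens a profile with so few counts. The differences of Dpysl5 from other members are limited by this.

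Other genes of the pathway were taken from 5 lists with 70 genes in the table. Between GNA11 Q209L tumours with and without Bap1 KO, 0 of the 70 passed edgeR's test. At an unadjusted p under 0.05 there were 7, or 10% beside 11.4% of all genes. Limma voom called 0, and DESeq2 called 2, or 2.86% beside 2.31% of all genes, so both shares are near the background. The 2 were Wasf1, a subunit of the actin-regulating WAVE complex, with a DESeq2 log2 difference of 1.58 and an adjusted p of 0.00541, and the neurotrophin receptor gene Ntrk2 with -4.14 and 0.0219. In GNA11 Q209L Bap1 KO against BRAF V600E Bap1 KO, 35 of 70 passed by edgeR, 21 higher and 14 lower. That is 50% beside 41.2% of all genes (16.5% higher and 24.7% lower), and without BRAF V600E Bap1 KO replicates 2 and 4 there were 24, all among the 35, or 34.3% beside 22% of all genes. In GNA11 Q209L against BRAF V600E Bap1 KO, 14 of 70 passed, 9 higher and 5 lower, or 20% beside 15.2% (9.27% higher and 5.93% lower), and 6 without those replicates, or 8.57% beside 5.16%.

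Among the ligand, receptors and relays of semaphorin 3A, 3 of 11 rose and 4 fell in GNA11 Q209L Bap1 KO against BRAF V600E Bap1 KO, with a median log2 difference of -0.28 beside -0.26 for all genes. Those that rose were Mical1, a flavoprotein that oxidises actin, the receptor gene Plxna1 and the GTPase gene Rac1. Mical1 had means of 166 ± 54.5 and 27.1 ± 9.50 CPM in these genotypes (SD, n = 5 and 4, also for the genes that follow), a log2 difference of 2.61 ± 0.37 (SE) with an adjusted p of 0.000892 by edgeR. Plxna1 was at 525 ± 155 CPM against 115 ± 49.0 CPM (adjusted p = 0.00167 by edgeR), and Rac1 at 559 ± 111 CPM against 266 ± 28.9 CPM (adjusted p = 0.00518 by edgeR). Plxna3, another plexin, was lower at 9.19 ± 1.07 CPM against 24.5 ± 4.4 CPM (adjusted p = 0.00173 by edgeR). The other 3 that fell, named after their values were seen, were the ligand gene Sema3a, its receptor gene Nrp1 and Plxna4. Sema3a was at 2.21 ± 2.40 CPM against 254 ± 337 CPM (adjusted p = 0.00776 by edgeR and 0.0763 by limma voom). Nrp1 was at 34.4 ± 7.21 CPM against 132 ± 84.6 CPM (adjusted p = 0.0193 by edgeR and 0.0526 without BRAF V600E Bap1 KO replicate 3).

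Of 16 genes of kinases, phosphatase subunits, proteases and other factors acting on CRMPs, 5 rose and 2 fell in that comparison, with a median log2 difference of 0.31. Without BRAF V600E Bap1 KO replicates 2 and 4, 1 rose and 1 fell. Ppp2r1a, a scaffold subunit of protein phosphatase 2A, had means of 703 ± 311 CPM and 177 ± 44.5 CPM, with an adjusted p of 0.00411 by edgeR. Gsk3b, which phosphorylates CRMPs after a priming kinase, was at 222 ± 16.6 CPM against 137 ± 25.8 CPM (adjusted p = 0.0147 by edgeR, and 0.162 without BRAF V600E Bap1 KO replicates 2 and 4). The kinase gene Camk2a was at 0.646 ± 0.472 CPM against 7.08 ± 10.2 CPM, with an adjusted p of 0.0153 by edgeR that became 0.0712 without BRAF V600E Bap1 KO replicate 4, where the log2 difference went from -3.46 to -1.64. Cdk5, the priming kinase, named for its role and not by its p, was at 41.1, 54.6 and 53.9 CPM in BRAF V600E Bap1 KO, GNA11 Q209L Bap1 KO and GNA11 Q209L, and did not pass the test between the oncogenes (adjusted p = 0.155 by edgeR).

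Of 15 binding partners and cargo genes, 5 rose and 3 fell, with a median of 0.16, and 3 rose and 3 fell without BRAF V600E Bap1 KO replicates 2 and 4. Tuba1b, an alpha-tubulin, was at 96.1 ± 35.3 CPM against 27.9 ± 4.35 CPM, with an adjusted p of 0.00284 by edgeR, and Wasf1 was at 17.3 ± 2.99 CPM against 4.03 ± 1.57 CPM (adjusted p = 0.00158 by edgeR). The membrane proteins went the other way. Ntrk2 was at 0.182 ± 0.157 CPM against 51.9 ± 50.3 CPM (adjusted p = 0.00104 by edgeR), and Cacna1b, the N-type calcium channel subunit that CRMP2 binds, was at 0.750 ± 0.609 CPM against 14.9 ± 5.19 CPM (adjusted p = 0.00106 by edgeR).

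Of 20 growth cone and neurite cytoskeleton genes, 6 rose and 4 fell, with a median of 0.41, and 4 rose and 3 fell without BRAF V600E Bap1 KO replicates 2 and 4. Mapre2, a microtubule plus-end protein, was at 165 ± 34.9 CPM against 53.5 ± 22.8 CPM, with an adjusted p of 0.00379 by edgeR. Genes best known from neurons went both ways. Tubb3 and Stmn3, named after their values were seen, were higher, at 440 ± 200 CPM against 76.9 ± 56.8 CPM (adjusted p = 0.0118 by edgeR) and at 5.35 ± 7.24 CPM against 0.168 ± 0.170 CPM (adjusted p = 0.0138 by edgeR, and 0.0843 without BRAF V600E Bap1 KO replicates 2 and 4), while Gap43, Stmn2 and Map2 were lower. Gap43 was at 0.518 ± 0.476 CPM against 37.4 ± 21.4 CPM (adjusted p = 0.000584 by edgeR). Stmn2 was at 0.187 ± 0.122 CPM against 131 ± 186 CPM (adjusted p = 0.00232 by edgeR and 0.0627 by limma voom), and Map2 at 1.17 ± 0.552 CPM against 31.6 ± 32.7 CPM (adjusted p = 0.00451 by edgeR and 0.111 by limma voom). A list of 10 neuron genes, which holds Stmn2 and Tubb3 as well, had a mean log2(CPM + 0.5) of 0.58 to 0.84 in GNA11 Q209L Bap1 KO and of 1.73 to 2.66 in BRAF V600E Bap1 KO, with summed levels of 205 to 745 CPM and 183 to 430 CPM, and its part in these differences was not tested.

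Of 8 genes of pyrimidine breakdown and related enzymes, 2 rose and 1 fell, with a median of -0.57, and 1 rose and 1 fell without those replicates. Tymp, thymidine phosphorylase, was at 18 ± 7.19 CPM against 4.31 ± 2.77 CPM, with an adjusted p of 0.00983 by edgeR that became 0.0796 without BRAF V600E Bap1 KO replicates 2 and 4. Abat, a transaminase of beta-alanine and GABA, was at 8.66 ± 2.95 CPM against 1.87 ± 1.75 CPM (adjusted p = 0.0301 by edgeR, and 0.0606 and 0.0519 without BRAF V600E Bap1 KO replicate 1 or 3). Upp1, uridine phosphorylase, was at 7.32 ± 4.17 CPM against 95.1 ± 107 CPM (adjusted p = 0.0101 by edgeR and 0.0644 by limma voom). Cad, the enzyme of pyrimidine synthesis, was at 80.1 ± 21 CPM against 53.5 ± 31.5 CPM and did not pass the test (adjusted p = 0.212 by edgeR). Dpys itself, named because it is the enzyme that CRMPs resemble, stayed below 1 CPM on average in every genotype, the highest being 0.777 CPM in BRAF V600E Bap1 KO.

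**Figure D5:**
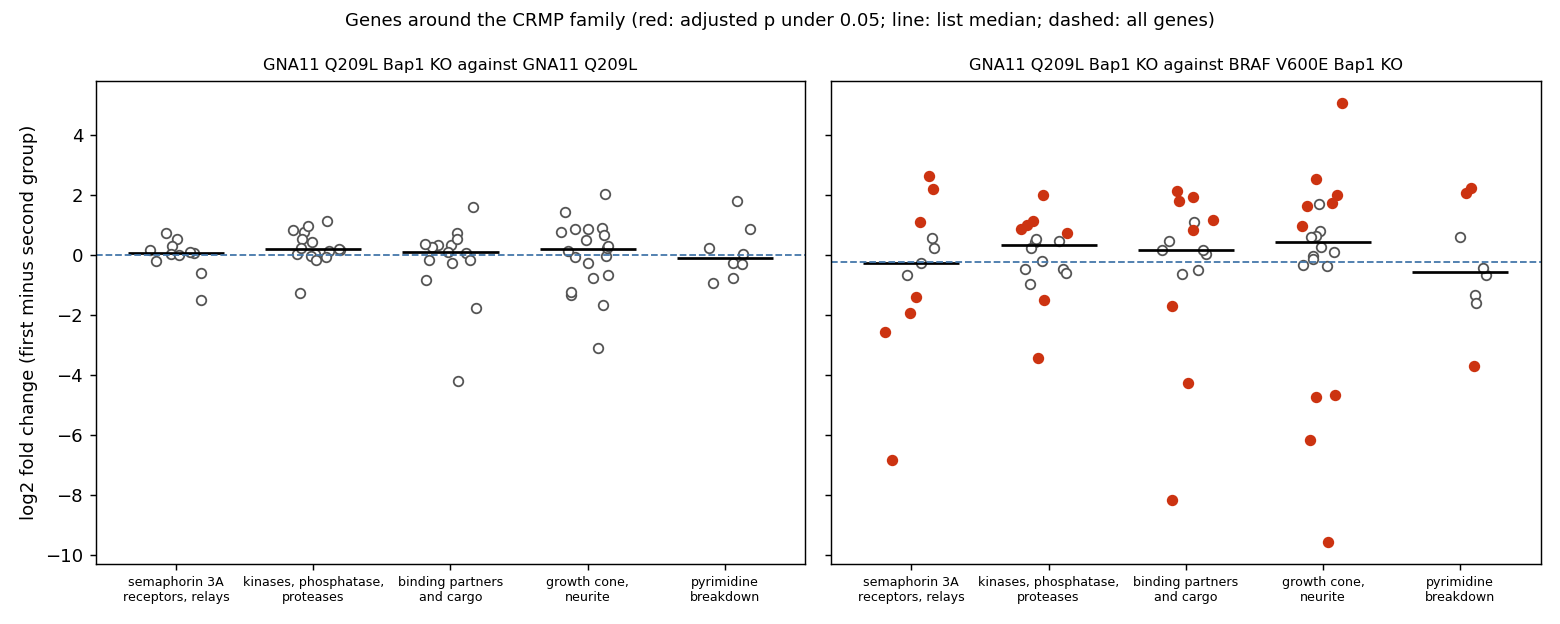
Fitted log2 fold changes of the genes in the 5 pathway lists in 2 comparisons (left, GNA11 Q209L Bap1 KO against GNA11 Q209L, and right, against BRAF V600E Bap1 KO), 1 point per gene, red where edgeR's adjusted p is under 0.05, with a line at the list median and a dashed line at the median of all genes. The left panel has 0 red points, and in the right panel they lie on both sides of 0 in all 5 lists, from 3 higher and 4 lower among semaphorin 3A genes to 2 higher and 1 lower among pyrimidine genes.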

How the data were processed

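The authors deposited 1 table of expected counts per gene for 11 RNA libraries, not normalised. The submitters' processing notes name STAR and mm9; no version, counting program or annotation is given in the sources used here. All deposited gene values were whole numbers. Of 18763 lines with an ID, 7 identical repeats were dropped, and 6 transgene rows were kept apart. Counts were tested with edgeR 4.0.16 (R 4.3.3, quasi-likelihood, TMM, filterByExpr by group, all 11 libraries in 1 model, 17350 genes, Benjamini-Hochberg threshold 0.05). A check on simulated data used less spread between libraries than was estimated here, so its outcome does not carry over to these data. P-values are two-sided, CPM values are TMM-scaled, and SEs derive from F statistics. Alternatives used RLE and upper quartile scaling, no filter, DESeq2 1.42.0, limma 3.58.1 (voom), 2 groups only, summed libraries and left-out libraries. Leaving out BRAF V600E Bap1 KO replicates 2 and 4 together was chosen after seeing the data. Named pathway genes are the 4 of each list with the smallest p between the oncogenes, except where stated and for 1 that is not reported here; nearest profiles were searched among genes with mean log2 CPM of at least 2 (prior count 2), the 8 closest for Dpysl3 and 3 for each other member. Pathway lists use symbols, of which 182 of 186 entries, markers included, matched. Lengths are exon unions from GENCODE M21 and are approximate, since the counting annotation is unknown. The members and lists were chosen with earlier results of these data known. Depth sets counting error only, and intervals are 95%.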

Additional observations from a re-analysis of the deposited data

Results flagged for a closer look

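Within GNA11 Q209L Bap1 KO, Dpysl3 in replicate 5 was 4.67 CPM, far from the other 4 libraries of the group (14.6 to 18.1 CPM). On the log2 CPM scale its gap to the nearest of them was 0.84 of the group's range, beside Dixon's 95% critical value of 0.71 for 5 samples, which chance passes in about 1 group in 20. The same rule was applied to all 5 members in both Bap1 KO genotypes, and only this value was flagged. These values were among those that chose the family, so the gap is a description and not a test. The same library had the lowest fibroblast level (mean log2(CPM + 0.5) of 2.66) and the lowest Dpysl4 of its group, at 1.73 CPM, with the lowest level of Dcn, a fibroblast proteoglycan gene, at 3.86 CPM. It also had the lowest macrophage level (2.99) and a total of 69700000 counts, beside 18300000 to 22600000 in the other 4 libraries of the group. Their part in the Dpysl3 value was not tested.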

How the results depend on the processing

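Over the alternatives, Crmp1 in GNA11 Q209L Bap1 KO against BRAF V600E Bap1 KO stayed past the threshold, and Dpysl2 stayed short of it. Dpysl3 in GNA11 Q209L Bap1 KO against GNA11 Q209L ran from -4.18 to -3.07. The log2 difference of Dpysl4 between the oncogenes ran from -0.07 to 0.94 with 1 library left out, the lowest without BRAF V600E Bap1 KO replicate 3. That of Dpysl3 in GNA11 Q209L against BRAF V600E Bap1 KO turned to -0.01 with upper quartile scaling, -0.05 with limma voom, -0.59 without GNA11 Q209L replicate 2, and -0.05 and -0.03 without BRAF V600E Bap1 KO replicate 1 or 3, with 0.46 as its highest value with 1 library left out. In GNA11 Q209L Bap1 KO against GNA11 Q209L, edgeR called 5 genes. It called 3 with RLE and 3 with no filter, 64 with the 2 groups only and 0 with the shared identifier summed (1743 at an unadjusted p under 0.05), while DESeq2 called 433 and limma voom 5. Leaving out 1 library gave 0 to 13 genes with 945 to 2221 at an unadjusted p under 0.05. It gave 0 without either GNA11 Q209L library or without GNA11 Q209L Bap1 KO replicate 1, 2 or 3, 1 without replicate 4 or 5, and 13 without BRAF V600E Bap1 KO replicate 1. Between the oncogenes 7146 genes were called, 5448 to 7176 with 1 library left out and 3571 without BRAF V600E Bap1 KO replicates 2 and 4. In GNA11 Q209L against BRAF V600E Bap1 KO the count was 2637, against 5383 with DESeq2, 417 with the 2 groups only, 838 without BRAF V600E Bap1 KO replicates 2 and 4, and 265 to 2867 with 1 library left out. The low counts were 1078 and 265 without GNA11 Q209L replicate 1 or 2, and 1737 without BRAF V600E Bap1 KO replicate 2. The cause was not tested. RLE and upper quartile scaling moved the median of all genes by under 0.1. No paired analysis was possible because the labels give no replicate numbers shared between genotypes. GNA11 Q209L has 2 libraries, which limits every comparison with it, and Dpysl5 and, in GNA11 Q209L, Crmp1 and Dpysl4 rest on few counts.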

Other observations

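The remaining members had other neighbours in profile. Dpysl2 lay closest to Ccnj, a cyclin gene, at a root mean square difference of 0.181, to Fancm, a DNA helicase of the Fanconi anaemia pathway, at 0.2 and to Pwwp2a, a chromatin reader gene, at 0.201. Ccnj had means of 10.5, 7.92 and 6.61 CPM in BRAF V600E Bap1 KO, GNA11 Q209L Bap1 KO and GNA11 Q209L. Dpysl4 lay closest to Zbtb16, a zinc finger repressor gene, at 0.983, with means of 15.9, 11.4 and 1.99 CPM in the same order, followed by Cachd1 at 1.03 and Slfn9 at 1.09. Dpysl5 lay closest to Csdc2, an RNA-binding protein gene, at 0.819, followed by Tlcd2 and by Pvrl1, the adhesion molecule nectin 1, at 0.836.

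The keratinocyte list of 10 genes had a mean log2(CPM + 0.5) of 3.3 to 8.69 in BRAF V600E Bap1 KO and -0.12 to 0.44 in GNA11 Q209L. Within GNA11 Q209L Bap1 KO the list set 1 library apart, at 5.10 in replicate 1. Its basal keratin gene Krt14 was at 786 CPM there and at most 1.27 CPM in the other 4 libraries of the genotype. The family values of this library lay within the range of the other 4 for Dpysl2 and Dpysl4, while its Dpysl3 was the highest of the 5 and its Crmp1 and Dpysl5 the lowest. These ranks rest on small gaps. Dpysl3 was at 18.1 CPM beside 16.7 CPM in replicate 4, and Crmp1 at 15.4 CPM beside 15.7 CPM in replicate 3. Dpysl5 had 2 counts beside 4 in replicate 2.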
